A study of Homo sapiens with 4 samples.

Results

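The genes of MHC class I peptide processing and loading were followed on 4 expression arrays of a human gastric carcinoma cell line recovered from tumours in mice. The set holds 10 genes, picked by symbol from the platform annotation: B2M, TAP1, TAP2, TAPBP, PSMB8, PSMB9, ERAP1, ERAP2, NLRC5 and HLA-E. For each gene the probe set with the highest mean over the arrays was used. Of the 10, 9 had a row that carries that symbol alone, among 18417 genes with such a row, and HLA-E was not analysed here. All 9 passed a signal minimum of 5.64 on the log2 scale, the 30th percentile of the mean over all rows, and belong to the 14547 genes tested.

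The cells were SNU-16, an established gastric carcinoma line, put orthotopically into the stomach of BalB/c nude mice. The round 1 stomach array (16S) holds cells of a stomach tumour and the round 1 ovary array (16O) cells of an ovarian metastasis, each dissociated and cultured for 7 days. The round 2 stomach array (16SS) comes from a stomach tumour of re-injected 16S cells, and the round 2 ovary array (16OO) from an ovarian metastasis of re-injected 16O cells. All 4 therefore share the parental line and the host strain, and RNA was taken from pellets of recovered cells in each case. Nude mice lack mature T cells but keep natural killer cells, B cells and myeloid cells. How many animals each array stands for is not stated in the labels, and the parental line before implantation was not analysed here.

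MHC class I molecules show fragments of a cell's own proteins at its surface, where CD8 T cells and natural killer cells read them. The proteasome cuts the proteins, and under interferon its catalytic subunits are replaced by immunosubunits such as PSMB8 and PSMB9. The TAP1 and TAP2 pair carries the peptides into the endoplasmic reticulum, where ERAP1 and ERAP2 trim them. TAPBP (tapasin) holds the transporter and an empty class I molecule together until a fitting peptide binds. B2M is the light chain of every classical class I molecule, and NLRC5 is a transactivator of class I genes in the nucleus. HLA-E is a non-classical heavy chain that is read by an inhibitory receptor of natural killer cells.

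Start-site windows were searched because several of these genes are known interferon targets. Each window ran from 250 bases before to 50 bases after a RefSeq start site (GRCh38.p14), and 8 of the 10 genes matched by symbol, NLRC5 and HLA-E being the ones without a match. The core of the interferon-stimulated response element was searched on both strands as GAAA, 2 bases of any kind and GAAA again. It was found in 7 of the 8 genes, against 4.38% of 27305 genes with a window and 3.57% of 35116 windows. A gene counted if any of its windows held a match. TAP1, PSMB8, ERAP1 and ERAP2 had a further annotated start site each, whose window held no match to the core. The stretches around the matches are shown because they carry what the members share in sequence. They read 5′ to 3′ on the gene's own strand, with the match in capitals, and a run of 16 capitals holds 2 overlapping matches.
B2M: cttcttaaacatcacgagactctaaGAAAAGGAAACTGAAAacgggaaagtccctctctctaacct
TAP1: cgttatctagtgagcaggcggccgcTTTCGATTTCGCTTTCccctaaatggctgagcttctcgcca
TAP2: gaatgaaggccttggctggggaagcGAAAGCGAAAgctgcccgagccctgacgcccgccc
TAPBP: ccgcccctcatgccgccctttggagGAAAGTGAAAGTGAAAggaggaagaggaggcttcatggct
PSMB8: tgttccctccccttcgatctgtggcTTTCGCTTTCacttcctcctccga
ERAP1: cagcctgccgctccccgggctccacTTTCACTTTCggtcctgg
ERAP2: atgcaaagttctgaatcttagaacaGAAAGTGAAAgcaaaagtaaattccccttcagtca

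These stretches lie at chr15:44711348-44711413 (B2M, plus strand), chr6:32853798-32853863 (TAP1, minus strand), chr6:32838763-32838822 (TAP2, minus strand) and chr6:33314059-33314123 (TAPBP, minus strand). Those of the remaining genes lie at chr6:32844028-32844076 (PSMB8, minus strand), chr5:96807926-96807968 (ERAP1, minus strand) and chr5:96876445-96876504 (ERAP2, plus strand). Positions are counted from the start site of the window with the match, taken as 0. The first match began at base -144 in B2M, -134 in TAP1, -58 in TAP2, -30 in ERAP2, -20 in TAPBP, -4 in PSMB8 and 2 in ERAP1. PSMB9 had no such match within its own window. Its start site lies 488 bases from the nearer start site of TAP1 on the opposite strand. The nearest TAP1 match is 354 bases from the PSMB9 start site, outside the window searched. A kappa B sequence of 10 fixed bases, searched on both strands, was present in B2M and TAP1, 2 of 8, against 0.227% of all genes. The Y box sequence CCAAT was present in B2M, TAP1, PSMB9 and ERAP1, against 39.7% of all genes, and TAP1 and PSMB9 share 1 such site between their starts. The GAS sequence TTCNNNGAA was present in TAP1 and PSMB8, against 9.38%, and the CRE sequence TGACGTCA in 0 of 8, against 2.249%. A match is a run of letters and was not tested as a binding site.

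**Figure D1:**
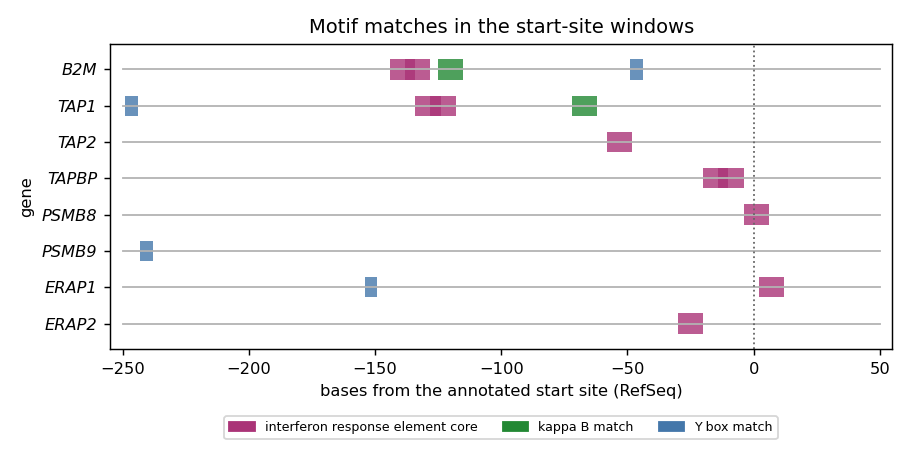
Motif matches in the RefSeq start-site windows of 8 members, drawn against the distance in bases from the start site (dotted line at 0), with 1 window per gene. For a gene with more than 1 start site, the window that holds the interferon response element core was drawn. Coloured boxes are matches to the interferon response element core, the kappa B sequence and the Y box, and the interferon response element core appears in every row but that of PSMB9.

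Values are deposited log2 expression, with medians over all rows of 6.80 to 6.84 on the 4 arrays. There is 1 array for each site in each round, so each site has 2 arrays, and no label says that they are independent cultures. In the main fit, p-values between sites are therefore set against the spread between successive passages of 1 lineage per site, which may be partly technical. Those between rounds are set against the spread between the stomach and ovary arrays of a round. Those of the interaction are set against a spread that holds the site and round differences. A level is a mean ± SD over n = 2 arrays, and differences (ovary minus stomach, and round 2 minus round 1) are on the log2 scale with limma's standard error. A permutation of 2 arrays against 2 cannot give an exact two-sided p below 0.333, so tests come from limma fitted over all 14547 genes, two-sided, with Benjamini-Hochberg adjustment. The free-text descriptions of both round 2 arrays conflict with their titles: the stomach sample is described as cultured from ovary, and the ovary sample as a stomach tumour in its last sentence. Titles and tissue labels were followed, and the site differences with these labels exchanged are given after the members. In RNA from a whole pellet, fewer cells of a type and less RNA per cell cannot be told apart.

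The comparison of sites asked how class I processing genes in cells from ovarian metastases compare with those in cells from stomach tumours. In round 1 all 9 measured members were lower in ovary than in stomach, and in round 2 7 of 9 were lower, TAP2 and NLRC5 being higher. Of all tested genes, 51.4% were lower in round 1 and 45.5% in round 2. Both ovary arrays lay below both stomach arrays for 6 members (B2M, TAP1, TAPBP, PSMB8, PSMB9 and ERAP2) and above them for 0, against 13.4% of all tested genes. Over all tested genes, 11.2% had both ovary arrays below both stomach arrays, and 24.7% were lower in ovary in each round, as 7 of the 9 members were. ERAP2, counted among the 6 and the 7, passed the signal minimum through its stomach arrays alone. Its place in these counts is therefore no separate support. The median difference of the members was -0.36 in round 1 and -0.11 in round 2, beside medians of -0.0053 and 0.0076 over all tested genes. None of the members passed the test across all genes: limma called 0 genes between sites (0.0% of those tested), with an adjusted p = 1 for each member. Unadjusted, 378 of all tested genes had a p under 0.05, and with the round as a replicate block 916 had, again with 0 called. With the round 2 labels exchanged, the number of members whose ovary arrays both lay below the stomach arrays was 1 in place of 6. That member is NLRC5, which is not among the 6. A gene whose ovary arrays both lie below its stomach arrays must overlap once these labels are exchanged. The loss of the 6 was therefore fixed in advance and is no result.

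**Figure D2:**
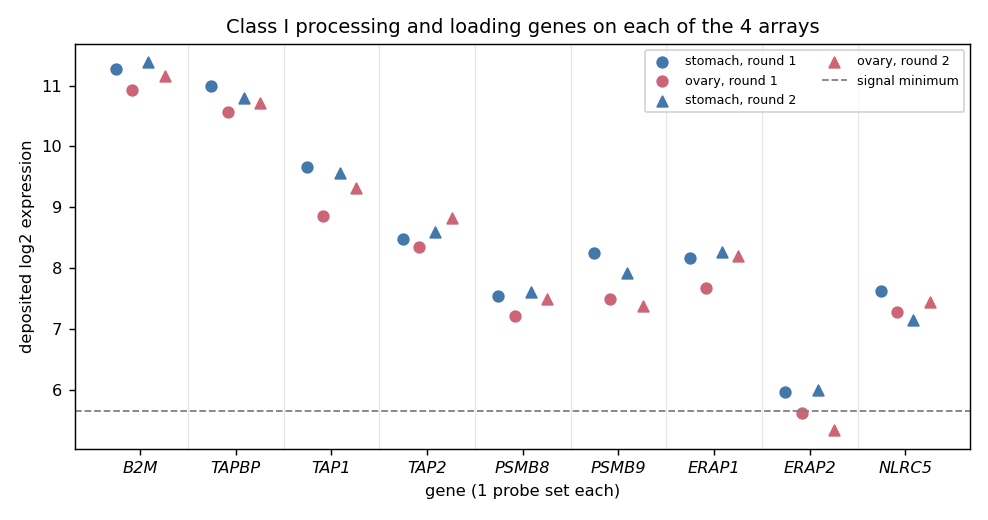
Deposited log2 expression (vertical axis) of the 9 measured members on each of the 4 arrays, with circles for round 1, triangles for round 2, blue for stomach and red for ovary; the dashed line is the signal minimum of 5.64. The red symbols lie below the blue ones of the same round for every member in round 1 and for 7 members in round 2, and levels of different genes are not comparable with each other.

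PSMB9, the immunosubunit that takes the place of PSMB6 in the proteasome, had the largest mean difference. It stood at 8.24 on the round 1 stomach array, 7.49 on the round 1 ovary array, 7.91 on the round 2 stomach array and 7.38 on the round 2 ovary array. Both ovary arrays were below both stomach arrays. The difference was -0.76 in round 1 and -0.54 in round 2, with a mean of -0.65 ± 0.14, or 1.57-fold higher in stomach. It ranked 32 from the lowest mean difference among the 14547 tested genes. Its unadjusted p from limma was 0.00749, and with the replicate block the adjusted p was 0.654.

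PSMB8, the immunosubunit with chymotrypsin-like activity that replaces PSMB5, differed less. Its values were 7.54 and 7.61 on the stomach arrays of rounds 1 and 2 and 7.20 and 7.50 on the ovary arrays. The groups did not overlap, but the round 2 gap (-0.11) was smaller than the ovary SD of 0.21. The mean difference was -0.23 ± 0.13. Its 3 probe sets held identical values on every array, as did those of PSMB9 and TAP1, so they are no independent readings.

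The constitutive catalytic subunits had sites that overlapped. PSMB6 differed by 0.044 in round 1 and -0.17 in round 2, PSMB5 by -0.019 and 0.095, and PSMB7 by -0.028 and 0.15. Set against its constitutive counterpart on the same arrays, PSMB9 shifted by -0.80 more in round 1 and -0.36 more in round 2. PSMB8 shifted against PSMB5 by -0.32 and -0.21. PSMB10, the remaining immunosubunit, differed by -0.17 and -0.20, and shifted against PSMB7 by -0.15 and -0.35. Of the 14 core subunits of the constitutive proteasome, 7 were lower in ovary on average, with a median difference of -0.010 and a range of -0.18 to 0.13. By round, 8 of the 14 were lower in round 1 (median -0.0050) and 10 in round 2 (median -0.079). For 3 (21.4%) both ovary arrays lay below both stomach arrays, against 11.2% of all tested genes. For 0 both lay above, against 13.4%. None of these subunits was called. The differences between the paired shifts have 1 array behind each value and were not tested.

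**Figure D3:**
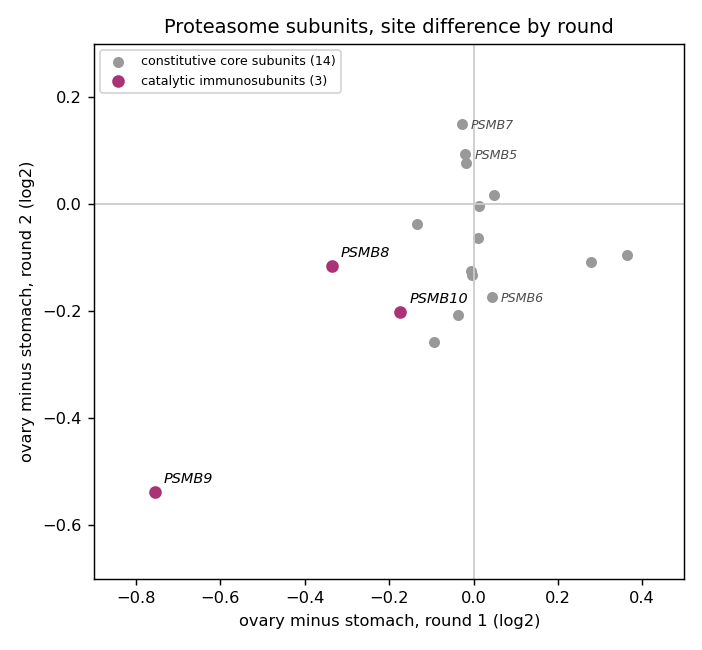
Ovary minus stomach difference in log2 units in round 1 (horizontal) and round 2 (vertical) for 14 constitutive core proteasome subunits (grey) and the 3 catalytic immunosubunits (purple), 1 array against 1 for each value. PSMB9 lies at -0.76 and -0.54, and the 3 immunosubunits are below 0 in both rounds.

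TAP1, the transporter chain encoded next to PSMB9, had the largest gap of any member in a single round. Its values were 9.66 and 9.56 on the stomach arrays of rounds 1 and 2, and 8.86 and 9.32 on the ovary arrays. The round 1 ovary array was the lowest of the 4 by a wide margin, and the groups did not overlap. The difference was -0.80 in round 1, or 1.75-fold, and -0.24 in round 2, or 1.18-fold. The mean difference was -0.52 ± 0.18, which ranked 68 from the lowest.

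TAP2, the partner chain of the transporter, had sites that overlapped. It stood at 8.48 and 8.60 on the stomach arrays of rounds 1 and 2 and at 8.35 and 8.83 on the ovary arrays, which were the lowest and the highest of the 4. Its mean difference was 0.051 ± 0.18. The other probe sets of TAP2 gave mean differences of 0.011 and 0.074, with the same opposite signs in rounds 1 and 2.

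TAPBP, which bridges the transporter and the empty class I molecule, had 10.99 and 10.80 on the stomach arrays and 10.57 and 10.72 on the ovary arrays of rounds 1 and 2. The ovary arrays were both lower, by 0.43 in round 1 but by only 0.077 in round 2, less than either site's SD (0.14 in stomach and 0.11 in ovary). The mean difference was -0.25 ± 0.12. Its remaining 2 probe sets gave mean differences of -0.29 and -0.25, lower in ovary in each round.

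Of the trimming peptidases, ERAP2 was lower in ovary by more in round 2 than in round 1, the only one of the 9 members of which this holds. It stood at 5.96 and 5.996 on the stomach arrays of rounds 1 and 2 and at 5.61 and 5.33 on the ovary arrays. Both ovary values lie under the signal minimum of 5.64, so they were measured at low signal. The mean of ERAP2 passed that minimum through the stomach arrays alone. At the stricter minimum of 6.82, the 50th percentile, ERAP2 was not tested. The difference was -0.35 in round 1 and -0.67 in round 2, with a mean of -0.51 ± 0.13 and an unadjusted p from limma of 0.0114. ERAP1, which trims longer peptides to the length class I molecules hold, stood at 8.16 and 8.26 on the stomach arrays and at 7.67 and 8.20 on the ovary arrays. Its sites overlapped, the difference being -0.49 in round 1 and -0.064 in round 2. The mean difference of -0.28 ± 0.20 was smaller than the ovary SD of 0.37.

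B2M, the light chain, stood at 11.28 and 11.38 on the stomach arrays of rounds 1 and 2 and at 10.93 and 11.16 on the ovary arrays. Both ovary arrays were lower, and the differences of -0.35 and -0.22 were the most alike between rounds of all 9 members. The mean difference was -0.29 ± 0.12, or 1.22-fold higher in stomach. Class I heavy chains had no row that carries a single symbol. A further 6 rows carry several class I heavy chain symbols each and cannot be assigned to a gene; they were picked after their values were seen. In all 6 both ovary arrays lay below both stomach arrays, beside 11.2% of the tested genes. That share covers single-symbol genes only. The 3 brighter rows, all HLA-C with HLA-B, differed by -0.67 to -0.64 in round 1 and by -0.19 to -0.085 in round 2. The 3 dimmer rows, all HLA-F with HLA-B, differed by -0.52 to -0.44 and by -0.19 to -0.13. Signal of near-identical heavy chains can be shared between such probe sets, so these are not 6 independent genes.

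NLRC5, the class I transactivator, did not separate the sites. It stood at 7.63 and 7.14 on the stomach arrays of rounds 1 and 2 and at 7.27 and 7.44 on the ovary arrays. The stomach arrays were the highest and the lowest of the 4, so the groups overlapped fully. The difference was -0.36 in round 1 and 0.30 in round 2, with a mean of -0.030 ± 0.19. Of the other regulators, IRF1, an interferon-induced activator that binds the response element printed above, differed by -0.33 in round 1 and -0.14 in round 2. Its sites overlapped. IRF2, a factor that binds the same element, differed by -0.32 and -0.37, with a mean of -0.34 ± 0.099, and both ovary arrays lay below both stomach arrays. RFX5, a subunit of the complex that binds the X box of MHC promoters, differed by 0.061 and 0.14, and CIITA, the class II transactivator, by -0.13 and 0.19.

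The site differences depend on which round 2 array is taken as stomach. With those labels exchanged, the mean difference of PSMB9 was -0.11 in place of -0.65, that of B2M -0.065 in place of -0.29 and that of TAP1 -0.28 in place of -0.52. PSMB8 was then at -0.11, TAPBP at -0.18 and ERAP1 at -0.21, each nearer to 0 than with the labels followed. A gene with the same sign in both rounds must come nearer to 0 in size by this exchange. A gene with opposite signs, as TAP2 and NLRC5, must move farther from it. These directions were therefore fixed in advance, and only the sizes are informative. ERAP2 was at 0.16 and TAP2 at -0.18, both with the opposite sign. NLRC5, at -0.33 ± 0.11, was the only member farther from 0 in the same direction, with an unadjusted p from limma of 0.0396 and an adjusted p = 1. They also depend on single arrays. Without the round 1 ovary array the difference was -0.012 for ERAP1, -0.078 for PSMB8, -0.17 for B2M and -0.29 for TAP1. Without the round 2 ovary array it was -0.54 for ERAP1 and -0.37 for PSMB8, and without the round 1 stomach array -0.15 for TAPBP. PSMB9 ran from -0.81 to -0.48 and ERAP2 from -0.65 to -0.37 over the arrays left out in turn.

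**Figure D4:**
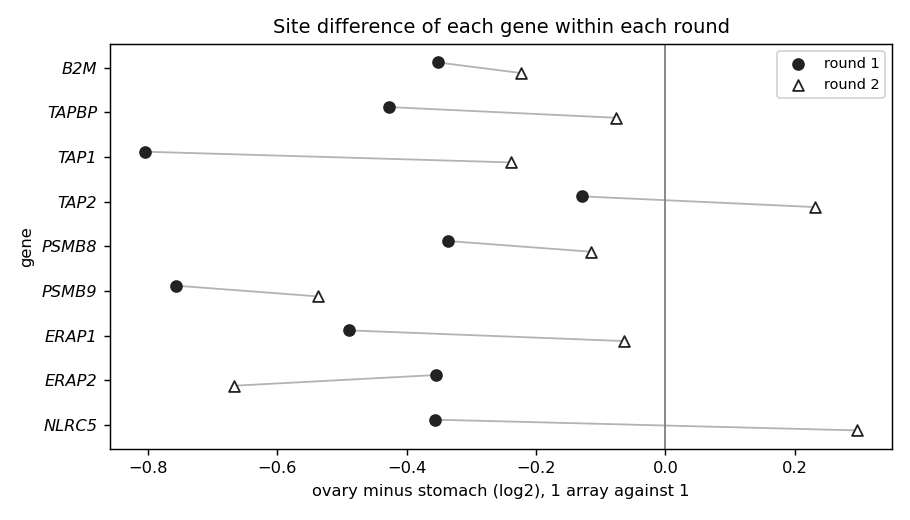
Ovary minus stomach difference in log2 units for the 9 measured members, with filled circles for round 1 and open triangles for round 2, 1 array against 1 for each symbol. All 9 circles lie left of 0, from -0.80 for TAP1 to -0.13 for TAP2, and 7 of the triangles do.

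TAP2, PSMB8, TAP1 and PSMB9 lie next to each other in this order on chromosome 6, within the class II region of the MHC. Their mean differences in that order were 0.051, -0.23, -0.52 and -0.65. The genes beyond them were HLA-DOB on the TAP2 side, at -0.19 but under the signal minimum, and HLA-DMB and HLA-DMA on the PSMB9 side, at 0.089 and -0.020. B2M on chromosome 15, ERAP2 on chromosome 5 and TAPBP, elsewhere on chromosome 6, lie outside this stretch and were also lower on both ovary arrays. ERAP1 on chromosome 5 and NLRC5 lie outside it too, and their sites overlapped.

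**Figure D5:**
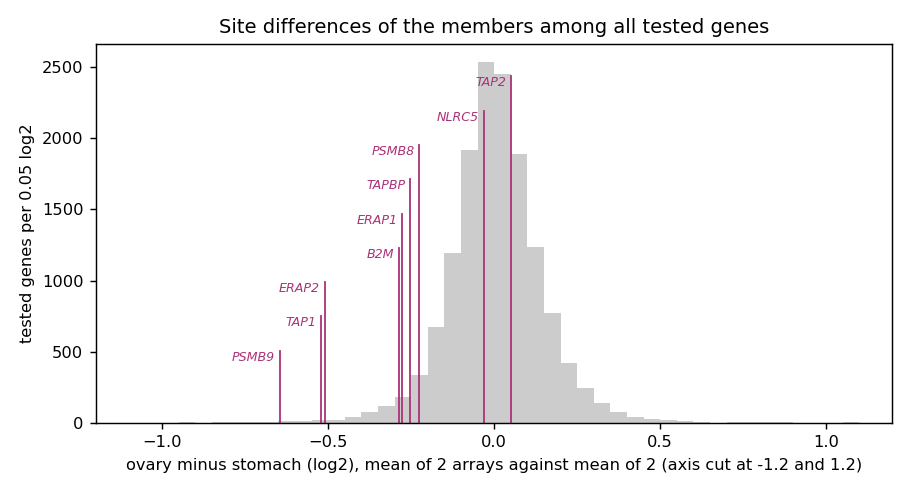
Histogram of the mean ovary minus stomach difference (log2) over the 14547 tested genes, in bins of 0.05, with purple lines for the 9 measured members; line height has no meaning and the axis is cut at both ends. PSMB9, TAP1 and ERAP2 lie at -0.65, -0.52 and -0.51 in the sparse left tail, and NLRC5 and TAP2 lie near 0. Both ovary arrays of ERAP2 were under the signal minimum.

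Apart from the members, 399 tested genes had the response element core in a start-site window, and 184 of them (46.1%) were lower in ovary. Their median difference was 0.0092, beside 0.0040 for 10989 tested genes without it, of which 48.5% were lower.

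Rounds were compared to see how cells of the second passage through mice stood against those of the first. Of the 9 members, 5 were higher in round 2 on average, against 45.4% of all tested genes. The median of the members was 0.17, beside -0.019 over all tested genes. TAP2 and ERAP1 had both round 2 arrays above both round 1 arrays, 2 of 9, against 22.2% of all tested genes, and 0 members had both below, against 26.8%. At both sites at once 4 of 9 were higher in round 2, against 29.0%. In stomach taken alone 5 of 9 were higher, against 44.1% of all tested genes, and in ovary 7 of 9, against 47.0%. TAP2 was higher in round 2 by 0.12 in stomach and 0.48 in ovary, with a mean of 0.30 ± 0.11, and ERAP1 by 0.10 and 0.53, with a mean of 0.32 ± 0.18. PSMB9 was lower in round 2 at each site, by 0.33 in stomach and 0.11 in ovary. The medians of the members were 0.032 in stomach and 0.23 in ovary. Limma called 0 genes between rounds (0.0% of those tested), although 2178 had an unadjusted p under 0.05, and the members' adjusted p ranged from 0.328 for TAP2 to 0.959 for TAPBP. The count of 5 was 9 without the round 1 stomach array, 3 without the round 1 ovary array and 8 without the round 2 ovary array.

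The site difference was nearer to 0 in round 2 for 7 of the 9 members. For TAP2 it was larger in size and of the opposite sign, and for ERAP2 it was larger in the same direction. The round 1 ovary array was the lowest of the 4 for 6 members and the round 2 ovary array for PSMB9 and ERAP2. NLRC5 was lowest on the round 2 stomach array. The change of the site difference from round 1 to round 2 ran from -0.31 for ERAP2 to 0.65 for NLRC5, with a median of 0.35 beside 0.025 over all tested genes. An interaction contrast set 16S and 16OO against 16O and 16SS. Apart from its sign, this contrast is the same fit as the site comparison with round 2 labels exchanged, so the 2 are not separate results. Site and round differences stay in its residual, so an absence of calls cannot decide whether site differences changed between rounds. For it limma called 0 genes (0.0% of those tested), 194 had an unadjusted p under 0.05, and NLRC5 had the smallest unadjusted p of the members, 0.0396. The spread of the members was wide: the range over the 4 arrays lay between percentile 79.2 of all tested genes (PSMB8) and percentile 97.8 (PSMB9).

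Further genes of the pathway were taken from 8 lists with 90 genes, of which 68 were tested. None of these genes was called in either comparison. Over all tested genes, 49.3% were lower in ovary on average and 45.4% were higher in round 2 on average. Of the loading chaperones, which fold class I chains before peptide binds, 4 of 6 were lower in ovary on average, with a median of -0.075. CALR (calreticulin) differed by -0.080 ± 0.089 and CANX (calnexin) by 0.0056 ± 0.091. TAPBPL, a tapasin relative that edits peptides, differed by -0.21 in round 1 and -0.38 in round 2, with both ovary arrays below both stomach arrays. Of the immunoproteasome and activator genes 4 of 5 were lower, with a median of -0.099, among them the activator subunits PSME1 (-0.19 ± 0.13) and PSME2 (-0.099 ± 0.13). Of other peptidases 2 of 5 were lower (median 0.043), of class I relatives that carry a single symbol 3 of 4 (median -0.12), and of class II genes 4 of 5 (median -0.094). Of the class I regulators 16 of 25 were lower, with a median of -0.036. In round 2, 16 of these 25 regulators were higher than in round 1, with a median of 0.092, and IRF1 stood higher by 0.41 ± 0.14. Of 5 tested interferon gamma targets 3 were lower in ovary (median -0.034), while 7 more lay under the signal minimum, CD274 (PD-L1) among them. GBP2, an interferon-induced GTPase, stood at 7.27 and 7.75 on the stomach arrays of rounds 1 and 2 and at 6.24 and 7.74 on the ovary arrays, low on the round 1 ovary array alone; it was singled out after its values were seen.

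Markers of the labelled cells were present on all arrays, EPCAM at 11.82 to 12.09 and KRT8 at 12.19 to 12.69. Of the 10 gastric carcinoma epithelium markers, 9 were lower in ovary in round 1 (median -0.31) and 9 in round 2 (median -0.030), beside 9 and 7 of the 9 members. Their summed linear level was 30344 and 32858 on the stomach arrays and 23868 and 31462 on the ovary arrays, lowest on the round 1 ovary array. Of 10 leukocyte markers with a row 6 passed the signal minimum, and those 6 were lower in ovary in each round, with medians of -0.12 and -0.065. The summed linear level of the 10 was 1629.5 and 1582 in stomach and 1337 and 1450.3 in ovary. PTPRC (CD45), the defining marker of leukocytes, lay between 3.97 and 4.11, under the minimum on every array, and CD3E and AIF1 also lay under it. Of the 8 markers of ovarian follicle and steroid cells 4 passed the minimum, and all 4 were higher in ovary on average, by 0.024 to 0.12. Their summed linear level was 656 and 588 in stomach and 645 and 622 in ovary, over all 8. Of the 8 fibroblast markers 5 passed the minimum, of which 5 were lower in ovary in round 1 (median -0.037) and 4 in round 2 (median -0.041). Their summed linear level over all 8 was 599 and 552 in stomach and 567 and 539.7 in ovary, and DCN, LUM and FAP lay under the minimum. Of the 4 mesothelium markers with a row, all above the minimum, 3 were higher in ovary in round 1, MSLN by 0.66, and 3 were lower in round 2, MSLN by 0.078. Their summed linear level was 409.6 and 477 in stomach and 505 and 457 in ovary. Of the 6 endothelium markers 3 passed the minimum and were lower in ovary on average (median -0.057), and PECAM1, KDR and TEK lay under it. Their summed linear level over all 6 was 329.8 and 419.6 in stomach and 332 and 383 in ovary. Host cells are mouse and the array is human, so mouse RNA is read only where probes match. Levels of the leukocyte, ovarian, fibroblast, mesothelium and endothelium markers therefore do not measure how many host cells the pellets held. Whether any of these marker lists has a part in the differences of the members was not tested.

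By its profile over the 4 arrays, TAP1 was most like PRR5L, a partner of the mTORC2 complex, with a root mean square difference of 0.024 between the centred profiles. MYO1A, a brush border myosin, was next (0.043), then SLC2A13 (0.049), ZNF587 (0.051), GNA15 (0.061) and the nucleoside transporter SLC28A2 (0.065). Over only 4 arrays such likeness is a description. Among the members, ERAP1 (0.14) and B2M (0.16) were nearest to TAP1 and NLRC5 (0.30) and TAP2 (0.30) farthest.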

How the data were processed

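Per the labels' protocols, RNA of cell pellets was fragmented, biotinylated and read on Affymetrix arrays. The authors deposited log2 expression values, 1 row per probe set and 1 column per array. The submitters' processing notes name Affymetrix Expression Console. A shift common to all genes is lost if the arrays were scaled, but background correction and normalization were not given in the sources used here. That values are log2 follows from their range.

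Of 33297 rows, 19460 carry 1 symbol in the platform annotation, 1754 several and 12083 are unnamed here. Symbols were updated by gene identifier to RefSeq (GRCh38.p14), which held 19429 of the single-symbol rows. Genes with a mean at or under the 30th percentile were left out (3870). Models were run in R 4.3.3 by limma 3.58.1 with eBayes, calling genes at an adjusted p under 0.05, and were checked on simulated data. Deviations from the site means correlated at 0.411 between arrays of the same round (2 pairs, numbered by round in the titles), and fits with and without this replicate block gave the same calls. Alternatives were other signal minimums, quantile normalization, median centring, averaged probe sets, trended and robust priors, leaving out each array and exchanged round 2 labels. The members, the lists and the rule for named genes (all members, a fixed panel of pathway genes, and the 6 genes nearest to TAP1) were chosen with earlier results of these data known. Figures were drawn with matplotlib 3.10.9.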

Additional observations from a re-analysis of the deposited data

Results flagged for a closer look

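The members below had differences of opposite sign in the groups compared, with 1 array behind each value, and the opposition of signs was not tested. Ovary minus stomach was negative in round 1 and positive in round 2 for TAP2, a change of 0.36, and for NLRC5, a change of 0.65. Round 2 minus round 1 was negative in stomach and positive in ovary for TAP1 (0.57), TAPBP (0.35) and NLRC5 (0.65), the values being the ovary minus the stomach change. For ERAP2 it was positive in stomach and negative in ovary (-0.31). In the limma contrast of the interaction none of these genes was called, each with an adjusted p = 1.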

How the results depend on the processing

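Limma called 0 genes in each alternative run, changing 1 choice at a time, between sites, between rounds and, where it was refitted, for the interaction. Unadjusted, 194 to 916 genes between sites and 1376 to 2481 between rounds had a p under 0.05. The smallest adjusted p, 0.0863, came between rounds with each array centred on its median, a setting not combined with the threshold of 0.10. The replicate block changed no call (0 called, smallest adjusted p from limma 0.122 between sites and 0.133 between rounds). With the round 2 labels exchanged, the site differences of 7 members kept their sign but ranged from -0.33 to -0.065. TAP2 was then at -0.18 and ERAP2 at 0.16. Members with no ovary array above a stomach array then numbered 1 (NLRC5) in place of 6, and all 6 had to drop out by the exchange itself. With each array centred on its median, TAPBP differed between rounds by 0.0039. Leaving out each array in turn gave site differences of -0.19 to 0.29 for TAP2, -0.27 to 0.21 for NLRC5, -0.54 to -0.012 for ERAP1, -0.37 to -0.078 for PSMB8, -0.75 to -0.29 for TAP1, -0.40 to -0.17 for B2M and -0.35 to -0.15 for TAPBP. For rounds it gave -0.0069 to 0.35 for B2M, -0.22 to 0.58 for TAP1, -0.23 to 0.19 for TAPBP, -0.60 to 0.16 for PSMB9, -0.46 to 0.21 for ERAP2 and -0.33 to 0.022 for NLRC5. It gave 3 to 9 members higher in round 2, in place of 5. Members with no ovary array above a stomach array numbered 6 to 8, a count that leaving out an array can only keep or raise, so it says nothing about stability. These counts under alternatives were added after the data were seen. The cause was not tested. ERAP2 is limited by low signal, under the minimum on both ovary arrays.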
